A study of Mus musculus with 30 samples.

Results

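Potassium channel genes were examined in whole mouse lung under low oxygen. Every probe set whose annotation gives a single gene symbol starting with Kcn was taken, which made 114 probe sets for 72 gene symbols, out of 36701 probe sets and 15965 genes in all. The lungs were profiled on Affymetrix MG-U74v2 arrays of 3 types (A, B, C), on which a short set of probes stands for each transcript and several probe sets can stand for 1 gene. The low-oxygen animals were killed after 10 h, 2 d, 4 d or 6 d in a chamber held at 10% oxygen, a treatment the labels give as a means of raising pulmonary blood pressure. The comparison group is titled Norm, and its description names a graft rejection instead of an oxygen level, so the title was followed. The labels give no strain, age, sex or genotype for any group. Each of the 5 groups holds 2 samples, 1a and 1b, with 1 array of each type per sample. Since no label says that 1a and 1b were different animals, a p-value here measures the spread between these samples and that spread may be technical.

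Potassium channels let potassium ions leave or enter a cell along their gradient and so set the membrane potential. In smooth muscle of small lung arteries, open potassium channels keep the membrane negative and the voltage-gated calcium channels shut, and their closure in low oxygen is a textbook step of hypoxic vasoconstriction. The family has voltage-gated channels (Kcna, Kcnc, Kcnd, Kcnh, Kcnq) with silent partners (Kcnf, Kcng, Kcns, Kcnv), channels opened by calcium or sodium (Kcnma, Kcnn, Kcnt), inward rectifiers (Kcnj), two-pore-domain leak channels (Kcnk) and auxiliary subunits (Kcnab, Kcne, Kcnip, Kcnmb). In whole lung, fewer cells of a type and less RNA per cell cannot be told apart.

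29 of the 30 arrays were used. The array titled Norm 1a of type A lies in the B table and was left out, so A comparisons with Norm rest on a single Norm array, 1b. Over 1303 genes measured on both A and B, the centred values of that A array correlated at 0.00446 with the B array of its own label and at 0.165 with the B array labelled 4 d 1a; on C the corresponding values over 1322 genes were 0.0514 and 0.165. The A array labelled 4 d 1a correlated at -0.0249 and -0.0248 with the arrays of its own label. For the remaining A arrays the own-label values were low too, at 0.0295 to 0.203 on B and 0.0292 to 0.166 on C. Among these, 6 d 1b also correlated more with a B array of another group (2 d 1b, 0.108) than with its own (0.0295). Members measured on A are therefore given as values of the arrays so labelled. The ratio of the 3′ to the 5′ probe sets of Gapdh, a sign of RNA degradation or of short labelled RNA, was 3.64 to 4.60 on the 2 d arrays and 0.786 to 1.68 on the others. The same ratio for actin was 3.64 to 4.98 at 2 d and 0.474 to 1.66 at 6 d. It was 0.0272 to 0.926 on the Norm, 10 h and 4 d arrays. The accessions of the 2 d and 6 d arrays also form a run of their own, apart from those of Norm, 10 h and 4 d. Precision is limited throughout by the small number of arrays. Transcripts typical of lung were present: all 4 alveolar epithelium probe sets on C and all 3 on B lay above the floor in every group. On A, 6 of 7 did in Norm and at 10 h, where the one for Sftpd did not, and all 7 did at 2 d, 4 d and 6 d.

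4 upstream sequences are shown, from RefSeq on GRCm38.p6, because they belong to the 2 genes that passed the test at 2 d (Kcnc1 and Kcnip3) and to the genes with the lowest p for late against early exposure (Kcnj2) and for 6 d against Norm among genes other than Kcnc1 (Kcne2). They were chosen after the values were seen. Each run is the 250 bases before a transcription start, 5′ to 3′ on the gene's strand. Capitals mark ACGTG or GCGTG on either strand, the core of the element that hypoxia-inducible factors bind. For Kcnip3 and Kcne2, which have several starts in the table, the outermost is shown. The Kcnc1 window precedes a start inside the annotated gene (chr7:46396219-46438706), so nearly all of it lies within the gene's span and not upstream of it.
Kcnc1, chr7:46396218-46396467, plus strand: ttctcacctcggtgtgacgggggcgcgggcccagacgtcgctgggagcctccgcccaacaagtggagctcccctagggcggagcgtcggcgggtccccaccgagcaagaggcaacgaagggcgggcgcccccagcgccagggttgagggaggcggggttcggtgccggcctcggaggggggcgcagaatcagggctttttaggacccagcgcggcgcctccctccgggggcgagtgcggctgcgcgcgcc
Kcnip3, chr2:127522095-127522344, minus strand: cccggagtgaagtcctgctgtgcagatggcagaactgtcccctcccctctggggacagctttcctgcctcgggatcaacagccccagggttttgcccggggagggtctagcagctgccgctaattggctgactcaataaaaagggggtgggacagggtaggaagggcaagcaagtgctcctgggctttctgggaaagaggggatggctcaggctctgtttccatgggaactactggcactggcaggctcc
Kcnj2, chr11:111065914-111066163, plus strand: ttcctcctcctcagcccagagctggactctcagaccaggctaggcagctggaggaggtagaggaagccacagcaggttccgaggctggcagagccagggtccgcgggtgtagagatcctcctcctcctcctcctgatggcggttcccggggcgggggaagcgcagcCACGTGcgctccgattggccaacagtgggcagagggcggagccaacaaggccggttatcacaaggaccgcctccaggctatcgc
Kcne2, chr16:92292139-92292388, plus strand: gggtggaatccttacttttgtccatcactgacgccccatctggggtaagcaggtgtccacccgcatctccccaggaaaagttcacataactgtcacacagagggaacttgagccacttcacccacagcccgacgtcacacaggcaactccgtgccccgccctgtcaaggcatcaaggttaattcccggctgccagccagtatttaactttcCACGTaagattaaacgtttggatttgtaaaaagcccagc
The Kcnc1 and Kcnip3 windows held neither core. The Kcnj2 window held 2 overlapping ACGTG matches, 1 on each strand of the palindrome in capitals, and the Kcne2 window held 1 match. Among the promoters of detected Kcn genes, 51 promoters of 36 genes, 17.6% held ACGTG, 31.4% held GCGTG and 41.2% held either. Among all 32851 promoters in the table the shares were 16.6%, 28.2% and 38.6%. A match is a run of letters and was not tested as a binding site.

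A probe set was called detected when its intensity lay above a floor on 2 or more arrays, the floor being the 40th percentile of all values of its array type (A, 236.05 and B, 297.36 and C, 200.93). Of the 114 Kcn probe sets, 59 were detected (51.8%), standing for 49 genes, while 70.3% of all probe sets were. 26 were above the floor on every array, 6 on 1 array only and 49 on none. Two-pore-domain channels, whose leak current sets the resting potential, were detected most often, with 11 of 12 probe sets and all 10 genes. Voltage-gated pore subunits were detected least often, with 13 of 36 probe sets for 12 of 18 genes. Between these lay the calcium- or sodium-activated channels (7 of 11), the inward rectifiers (14 of 25), the silent subunits (4 of 8) and the auxiliary subunits (8 of 19). Of the 3 probe sets for non-coding RNAs named after a channel gene, 2 were detected (Kcnmb4os1 and Kcnmb4os2, both at the Kcnmb4 locus) and the one for Kcnq1ot1 was not.

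**Figure D1:**
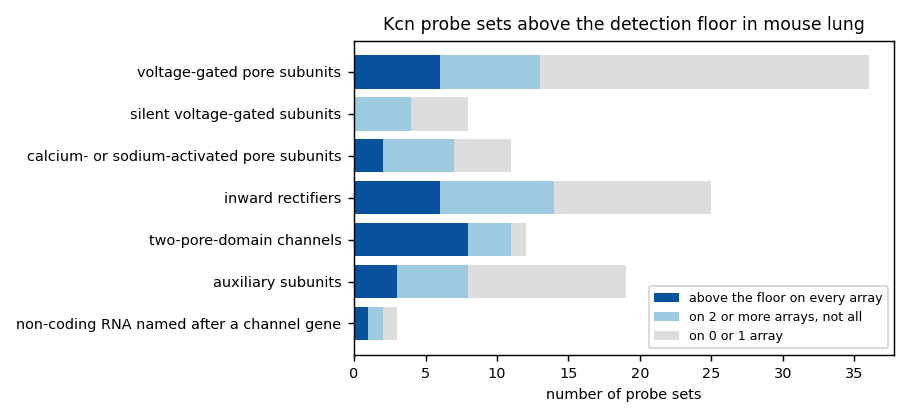
Number of Kcn probe sets (x axis) in each channel class (y axis), split by whether they lay above the detection floor on every array, on 2 or more but not all, or on at most 1. Two-pore-domain channels had 11 of 12 probe sets detected, and voltage-gated pore subunits 13 of 36.

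The 23 genes with no detected probe set included channels known from vessels and heart. Kcna3, a voltage-gated channel of lymphocytes and vascular muscle, stayed between 83.2 and 226.7 on the 9 A arrays, all under the floor. Kcnmb1, the smooth muscle partner of the large-conductance calcium-activated channel, reached 397.8 on 1 B array (Norm 1a) and lay under the floor on every other array. Kcnab1, Kcne1, Kcnj3, Kcnj5, Kcnj10 and Kcnd2 were also among the genes not detected, which says only that their signal could not be told from dim probe sets here. Detection differed by array type, since 43.1% of the A, 44.8% of the B and 70.6% of the C probe sets for Kcn genes passed, against 67.6, 69.3 and 74.2% of all probe sets of these types.

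31 of the 72 genes had several probe sets, and for 22 of these some probe sets were detected and others were not. All probe sets were detected for 5 genes and none for 4. Kcna5, the voltage-gated channel best known from lung artery muscle, was above the floor on 9 of 10 arrays with its C probe set and on none with either of its A probe sets. Kcnj2 was above the floor on every C array, while its A probe set never exceeded 97.2. For Kcnq3, Kcnq5, Kcnmb4, Kcnd1 and Kcnd3, a single probe set was detected and every other lay under the floor on every array. The position of each probe set along its transcript was not analysed here.

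Few of the detected channels passed the adjusted threshold against Norm. With limma's moderated test and Benjamini-Hochberg adjustment over all 25801 probe sets tested, 2 of the 59 detected Kcn probe sets passed an adjusted p of 0.05 at 2 d, both higher, where 1.86% of all probe sets passed. None passed at 10 h, 4 d or 6 d, where 0, 0.00775 and 0% of all probe sets passed. Late against early exposure (the mean of 4 d and 6 d minus that of 10 h and 2 d) gave no Kcn call against 0.0155% overall. The test over all 4 times together gave 1, Kcnc1, against 1.24% overall. At an unadjusted p under 0.05, the counts were 5 of 59 at 10 h (8.47%, against 6.11% of all), 13 at 2 d (22%, against 18.9%), 5 at 4 d (8.47%, against 6.13%) and 5 at 6 d (8.47%, against 9.17%). They were 8 for late against early (13.6%, against 11%) and 13 for all times together (22%, against 19.6%). The shares of channel probe sets thus lay close to those of all probe sets. The median log2 difference of the 59 was 0 at 10 h, 0.15 at 2 d, 0.04 at 4 d and 0.03 at 6 d, and that of all probe sets was 0 each time. All samples of a time often lay on 1 side of all Norm samples. At 10 h, 2 d, 4 d and 6 d this held for 42.4, 52.5, 32.2 and 32.2% of the 59. Of all probe sets it held for 40.8, 54, 36.7 and 46.4%. Late samples lay wholly on 1 side of early ones for 8.47% of the 59, against 3.47% of all. The 4 comparisons with Norm share the Norm arrays.

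**Figure D2:**
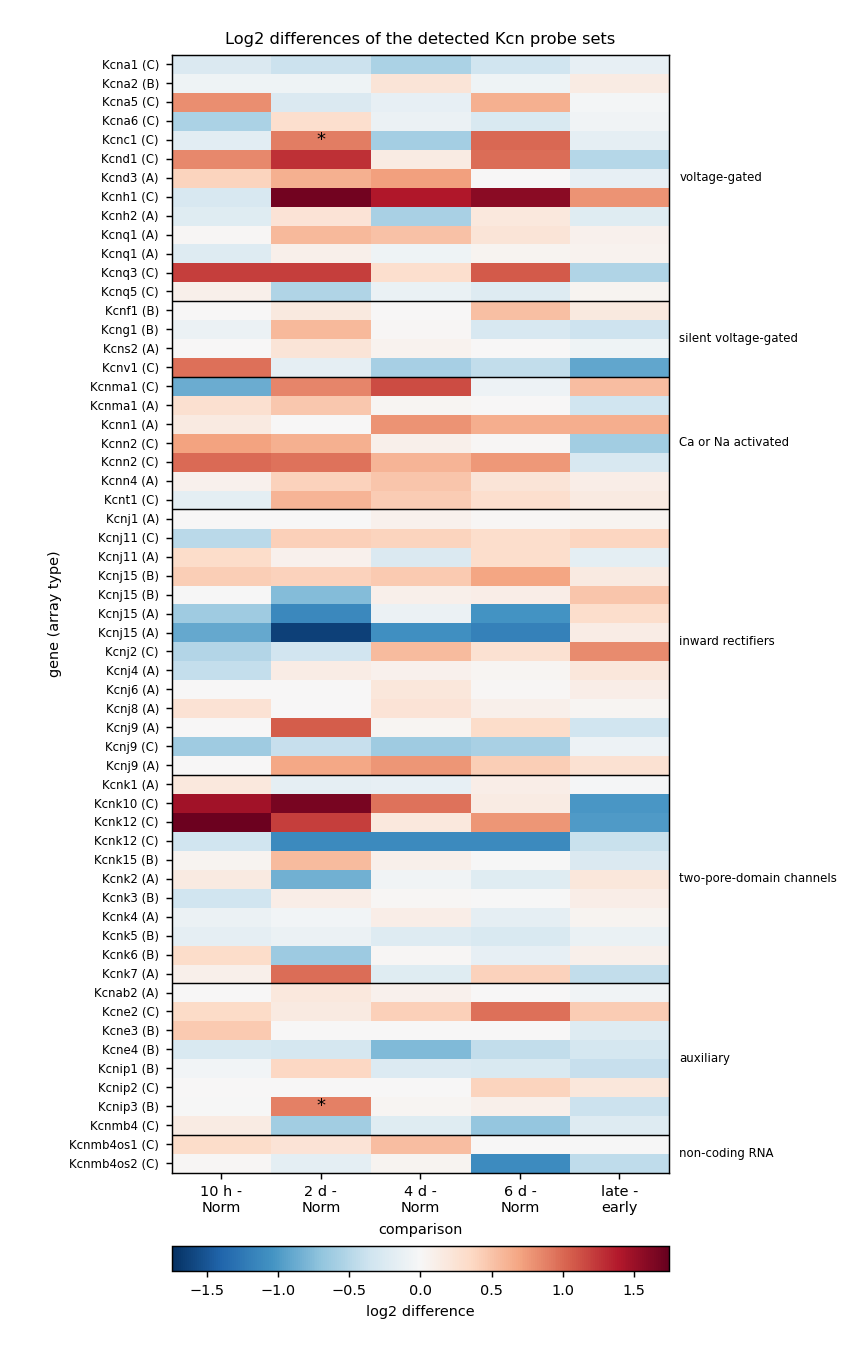
Log2 difference (colour, red higher, blue lower) of the 59 detected Kcn probe sets (rows, with array type, grouped by channel class) in 5 comparisons (columns). The 2 asterisks, Kcnc1 and Kcnip3 at 2 d, mark an adjusted p under 0.05, and the colours on both sides of 0 are mixed in most classes.

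Kcnc1 encodes Kv3.1, a fast voltage-gated channel of quickly firing neurons that has also been described in lung artery muscle (chr7:46396219-46438706). Its detected probe set, on C, read 3182 and 3605 in Norm, 3166 and 2826 at 10 h, 6451 and 6166 at 2 d, 2034 and 2480 at 4 d, and 6187 and 7443 at 6 d. The 2 d and 6 d arrays were all above the others, and the 4 d arrays were below Norm. At 2 d the log2 difference from Norm was 0.90 ± 0.17 (SE; 1.86-fold; adjusted p = 0.0382). At 6 d it was 1.003 ± 0.169 (adjusted p = 0.189) and at 4 d -0.59 ± 0.17 (adjusted p = 0.604), neither of which passed. Over all times together Kcnc1 passed with an adjusted p of 0.013. Its levels followed the run of accessions, since 2 d and 6 d, which share a run, were high and the other run was low; within a run, 6 d minus 2 d was 0.11 ± 0.17 and 4 d minus 10 h was -0.41 ± 0.17. Run and time in low oxygen cannot be told apart here. The other Kcnc1 probe sets on A and B lay under the floor on every array, and the second C probe set rose above it on 1 array only, 2 d 1a at 324.5. The detected one carries the suffix _r, which Affymetrix gave to probe sets whose probes did not meet all of its selection rules.

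In all, 4 of the 59 channel probe sets had every 2 d and 6 d array on one side of every other array, where 8.05% of all probe sets had. Kcnc1 was the one with these arrays above, and 1 of the Kcnj15 probe sets, Kcnk2 and Kcnmb4 had them below.

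Kcnip3 encodes a calcium-binding protein, also called DREAM or calsenilin, that attaches to Kv4 channels and represses transcription in the nucleus (chr2:127456498-127522094). On B it read 1446 and 1872 in Norm, 1693 and 1596 at 10 h, 3062 and 3028 at 2 d, 1483 and 1904 at 4 d, and 1774 and 1737 at 6 d. Both 2 d samples stood above all others. The Norm samples and the 4 d samples each lay on both sides of those of 10 h and 6 d. The 2 d difference was 0.89 ± 0.17 (1.85-fold; adjusted p = 0.0427), while at 10 h, 4 d and 6 d it was 0.00, 0.03 and 0.09 (each ± 0.17). Within the run that holds both, 6 d minus 2 d was -0.79 ± 0.17 and did not pass (adjusted p = 0.117). The 2 d arrays are also those with the high Gapdh ratio of 3.64 to 4.60. On C, which holds the Kcnc1 probe set, the actin ratio at 6 d was 1.128 and 1.363. It was at most 0.926 on the Norm, 10 h and 4 d arrays. The part of these ratios in the Kcnip3 and Kcnc1 values was not tested. Both calls were lost in some leave-one-out fits: the adjusted p reached 0.135 for Kcnc1 and 0.148 for Kcnip3, and neither passed at 2 d when any 1 of the 10 h, 2 d or 6 d samples was left out. Without Norm 1a neither passed either (0.0854 and 0.0901) and a Kcnj9 probe set did; without Norm 1b, Kcnc1 did not (0.0562) and Kcnip3 did.

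The Kv4 pore subunits to which Kcnip3 binds did not pass. Kcnd1 read 176.4 and 713.5 in Norm and 899.7 and 943.9 at 2 d on C, and the Norm samples lay further apart than the group means (1.28 ± 0.59, adjusted p = 0.285). Kcnd3 read 179.3 on the array labelled Norm 1b and 394.6 and 334.6 at 2 d on A (with Norm at the floor, at least 0.62 ± 0.35, adjusted p = 0.383). Kcnip1 crossed the floor between samples of a group, and Kcnip2 was above it only in the 6 d samples (207.6 and 333.4); neither passed.

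**Figure D3:**
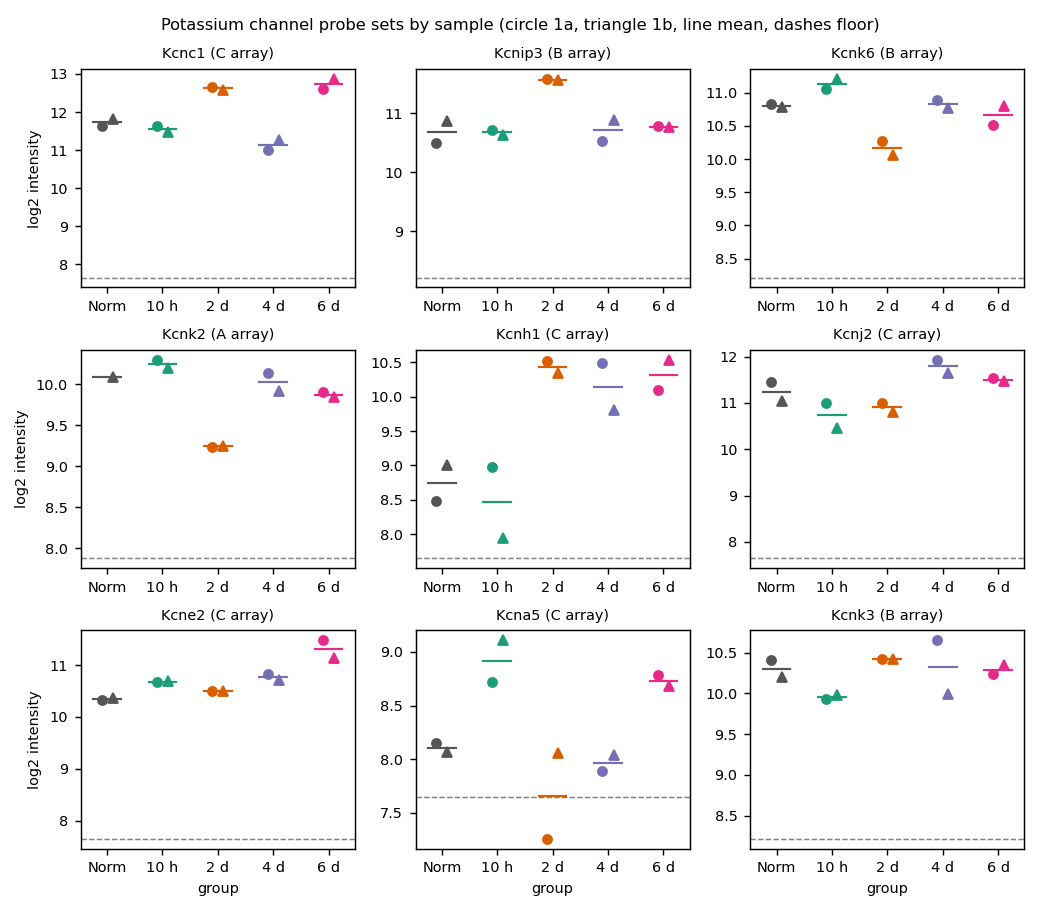
Log2 intensity (y axis) of 9 channel probe sets in each sample by group (x axis), as deposited; circles are sample 1a, triangles 1b, lines group means and dashes the detection floor. Kcnc1 was high at 2 d and 6 d, Kcnip3 high at 2 d only among the group means, and Kcnk6 and Kcnk2 low at 2 d.

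Among the other voltage-gated channels, Kcnh1, the ether-a-go-go channel Kv10.1 of brain and many tumours, had the largest log2 difference of all detected channel probe sets at 2 d, 4 d and 6 d. Its C probe set read 356.9 and 515 in Norm, 505.3 and 246.3 at 10 h, 1474 and 1303 at 2 d, 1438 and 891.4 at 4 d, and 1097 and 1486 at 6 d. Every sample from 2 d on lay above every Norm and 10 h sample. The differences were 1.69 ± 0.43 at 2 d (adjusted p = 0.0766), 1.40 ± 0.43 at 4 d (adjusted p = 0.653) and 1.57 ± 0.43 at 6 d (adjusted p = 0.319), and none passed. The A probe set for Kcnh1 was under the floor on all 9 arrays, with a highest value of 42.0. Of the neuron markers, 6 to 8 of 15 probe sets on A, 0 to 2 of 6 on B and the single one on C were above the floor in each group. Their summed intensity on A was 5247 on the array labelled Norm 1b, 5062 to 5620 at 10 h, 6758 to 6962 at 2 d, 6017 to 7038 at 4 d and 6358 to 7043 at 6 d. Nefl, Nefm and Snap25 had probe sets under the floor on A and B in every group. None of the 9 neuron probe sets tested was called at 2 d, where the smallest p belonged to Gap43, a growth cone protein (1.10 ± 0.57, adjusted p = 0.351). The part of these markers in the Kcnc1 and Kcnh1 values was not tested.

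Kcna5, encoding Kv1.5, read 284.0 and 267.5 in Norm, 421.6 and 551.5 at 10 h, 153.4 and 266.6 at 2 d, 237 and 263.6 at 4 d, and 441.4 and 410.2 at 6 d. The 10 h and 6 d samples were above the rest, and 1 of the 2 d samples was under the floor. The difference from Norm was 0.81 ± 0.32 at 10 h (adjusted p = 0.747) and 0.63 ± 0.32 at 6 d (adjusted p = 0.621). The step from early to late ran down in 1 run (4 d minus 10 h, -0.95 ± 0.32) and up in the other (6 d minus 2 d, 0.88 ± 0.32), a difference between runs of 1.83 that did not pass (adjusted p = 0.263). Among all 25801 probe sets 1 passed that test.

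Kcnq1 (KvLQT1), which recycles potassium in epithelia and repolarises heart muscle, had both its A probe sets above the floor on every array. Neither differed past the threshold at any time, and at 2 d they gave 0.57 ± 0.30 and 0.08 ± 0.39. Kcnq5, a channel of muscle and vessels, read 820.6 and 1023 in Norm and 613 and 659.9 at 2 d, lower in both samples without passing (-0.53 ± 0.32, adjusted p = 0.416). This probe set carries the suffix _r, and the other C probe set of Kcnq5 lay under the floor on every array. Kcnq3 had 1 Norm sample under the floor (193.2, beside 370.4) and read 729.4 and 549.9 at 10 h, 528.7 and 755 at 2 d, 424.2 and 262.4 at 4 d, and 745.5 and 443.8 at 6 d. The differences were 1.22, 1.21, 0.29 and 1.08 (each ± 0.50), and none passed. Kcnh2 (hERG) read 796.6 on the array labelled Norm 1b and between 457.8 and 1135 elsewhere. Kcna1, Kcna2 and Kcna6 crossed the floor between samples of the same group. The silent subunit Kcnv1 read 339.9 and 794.1 in Norm, 863.4 and 1195 at 10 h, and 1072 and 137 at 2 d, so its samples differed as much within a group as between groups. Kcng1, another silent subunit, read 494.9 and 306.0 in Norm on B and 566.9 and 587.9 at 2 d (0.57 ± 0.26, adjusted p = 0.284).

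Calcium-activated channels hyperpolarise muscle and endothelium when calcium rises. With the sodium-activated Kcnt1 included, 5 of the 7 detected probe sets were higher than Norm at 10 h (median 0.16), 6 at 2 d (0.60), 7 at 4 d (0.49) and 6 at 6 d (0.22), and none passed at any time. Of all probe sets, 48.6, 49.7, 48.6 and 47.7% were higher at these times. The 7 stand for 5 genes, and Kcnn1, at the floor on the array labelled Norm 1b, could not read lower. On C, Norm 1b was also under the floor for Kcnma1 (121.9) and for both detected Kcnn2 probe sets (161.2 and 200.2). Kcnma1, the pore of the large-conductance channel of smooth muscle, split its Norm samples on C, at 928.5 in 1a and 121.9 in 1b. The same probe set read 94.4 and 277.2 at 10 h, 851.6 and 711.4 at 2 d, 840.9 and 1087 at 4 d, and 220.7 and 751.2 at 6 d. Its 10 h difference of -0.87 ± 0.76 turned to 0.23 without Norm 1a. On A, where Kcnma1 read 257.9 on the array labelled Norm 1b, it stayed between 244.9 and 383.0 at all times. Kcnn4, the intermediate-conductance channel of endothelium, epithelium and blood cells, ranged from 436.5 to 776.3 on A with no call. Kcnn1, a small-conductance channel, was above the floor on 3 of 9 A arrays, at 295.0 at 10 h, 698.4 at 4 d and 571.2 at 6 d, each time in only 1 sample of the group, and its 4 d value was at the floor without 4 d 1b. For Kcnn2, another channel of that kind, the 2 detected C probe sets both read higher at 10 h and 2 d, for one of them with 378.9 and 317.2 at 10 h and 386 and 280.2 at 2 d against 225.4 and 161.2 in Norm. This probe set was lower late than early by -0.61 ± 0.18 (adjusted p = 0.3).

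The partner Kcnmb4, a beta subunit of the large-conductance channel, read 908.1 and 979.5 in Norm on C and 1258.5 and 870 at 10 h. It read 629.8 and 606.4 at 2 d, 768 and 857.2 at 4 d, and 722.2 and 478.9 at 6 d. The samples of 2 d, 4 d and 6 d all lay below both Norm samples. The differences were -0.61 ± 0.33 at 2 d and -0.68 ± 0.33 at 6 d (adjusted p = 0.363 and 0.596). Kcnmb4os2, a non-coding RNA that overlaps the high-coordinate edge of Kcnmb4 on the annotation, read 781.1 and 1301 in Norm and 342.4 and 649.4 at 6 d (-1.10 ± 0.38, adjusted p = 0.415). With 1 sample left out, the 6 d difference ranged from -1.56 to -0.63 for Kcnmb4os2 and from -0.98 to -0.39 for Kcnmb4, the extremes of both coming from leaving out a 6 d sample.

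Inward rectifiers pass potassium more readily inward and hold the resting potential. Kcnj2 (Kir2.1), the rectifier of heart, endothelium and small arteries, was the channel with the smallest p for late against early exposure (chr11:111066164-111076825). On C it read 2793 and 2099 in Norm, 2055 and 1409 at 10 h, 2049 and 1800 at 2 d, 3908 and 3208 at 4 d, and 2970 and 2843 at 6 d. All 4 late samples lay above all 4 early ones. Late minus early was 0.83 ± 0.16 (1.77-fold), and it went the same way within both runs, by 1.06 ± 0.23 from 10 h to 4 d and by 0.60 ± 0.23 from 2 d to 6 d. It did not pass over all probe sets (adjusted p = 0.158). Norm lay between, with differences of -0.51 ± 0.23 at 10 h and 0.55 ± 0.23 at 4 d that did not pass.

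Kcnj15 (Kir4.2), a rectifier of epithelia such as that of the kidney, was measured by 4 probe sets, and they did not move together. The A probe set whose name ends in _at read 1430 on the array labelled Norm 1b, 804.6 and 739.2 at 10 h, 527.4 and 405.1 at 2 d, 356.3 and 1290 at 4 d, and 587.1 and 676.9 at 6 d. The other A probe set, whose suffix _s marks probes shared between transcripts, read 516 on the array labelled Norm 1b, 353.3 and 319.5 at 10 h, 189.7 and 130.1 at 2 d, 391.7 and 591.5 at 4 d, and 176.1 and 266.5 at 6 d. Both had their lowest mean at 2 d, by -1.63 ± 0.63 (adjusted p = 0.21) and, with 2 d at the floor, by at least 1.13 ± 0.29 on the log2 scale (adjusted p = 0.087). 1 of the B probe sets read 828.9 and 571.3 in Norm and 385.1 and 429.7 at 2 d (-0.76 ± 0.25, adjusted p = 0.144), and it was back at 763.7 and 703.8 at 4 d. The other B probe set read 627.6 and 352.6 in Norm and 768.3 and 508 at 2 d (0.41 ± 0.34). So 3 of the 4 read lower at 2 d and 1 read higher, and no probe set passed. Both A probe sets passed at 2 d without either of the 4 d samples (adjusted p 0.0455 to 0.0486), a fit that leaves out arrays not in the comparison.

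**Figure D4:**
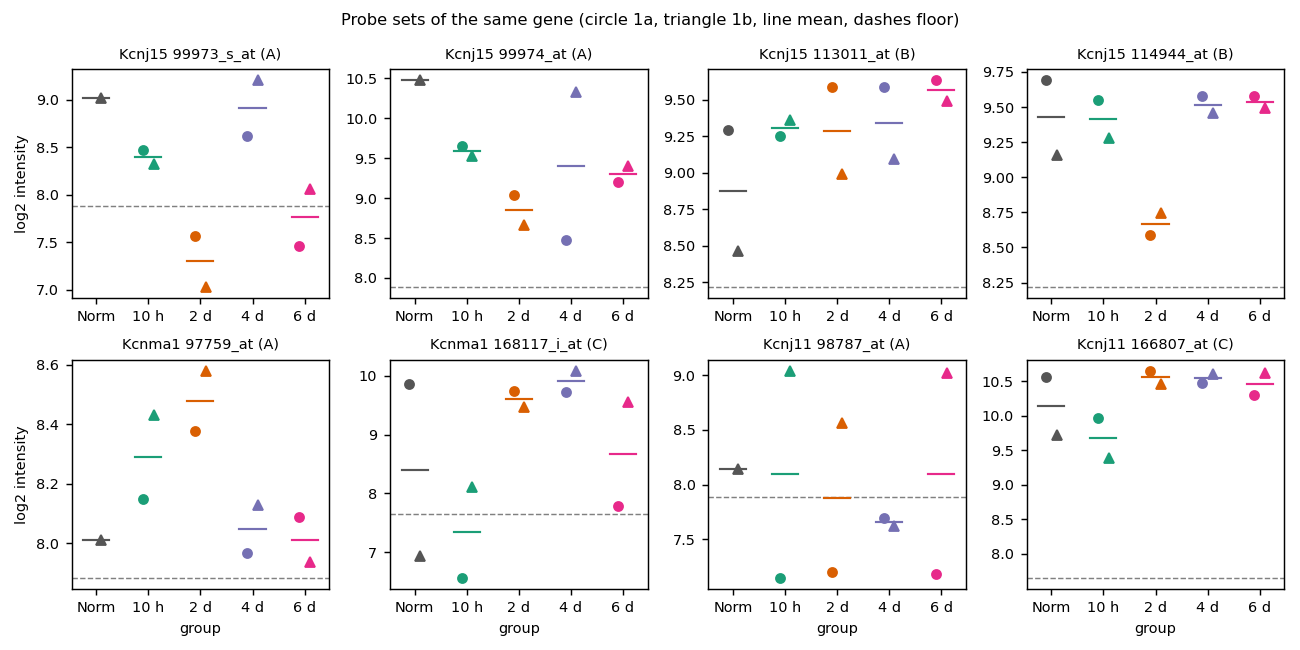
Log2 intensity (y axis) by group (x axis) of the 4 probe sets of Kcnj15 and of 2 each of Kcnma1 and Kcnj11, as deposited, with array type in brackets; circles are sample 1a, triangles 1b, lines group means and dashes the detection floor. 3 Kcnj15 probe sets had their lowest mean at 2 d and the one with Norm values of 627.6 and 352.6 was not.

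Both genes of the ATP-sensitive channel pore gave no call. Kcnj11 (Kir6.2) read 1511 and 846 in Norm on C, 1000 and 670.8 at 10 h and 1610 and 1403 at 2 d, and its A probe set crossed the floor within 3 groups. Kcnj8 (Kir6.1), the pore of the vascular form, was above the floor on 3 of 9 A arrays, with 332.2 at 10 h as its highest value. Kcnj9, a neuronal G-protein-gated rectifier, was detected by 3 of 4 probe sets that went in different directions: at 4 d one on A read 304.7 and 538.3 against 88.5 on the array labelled Norm 1b, while one on C read 152.1 and 51.1 against 169.1 and 476.1 in Norm. The C difference rests on Norm 1b alone, since the other 3 values lie under the floor, and it was 0 without that array.

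Of the 11 two-pore-domain probe sets, 5 had an unadjusted p under 0.05 at 2 d, where 18.9% of all probe sets had, and none passed after adjustment. Kcnk6 (TWIK-2), a weak rectifier of vessel muscle and macrophages, read 1816 and 1764 in Norm on B, 2123 and 2357 at 10 h, 1242 and 1073 at 2 d, 1895 and 1741 at 4 d, and 1460 and 1788 at 6 d. The 2 d samples were below all others and the 10 h samples above all others. The 2 d difference was -0.63 ± 0.16 (adjusted p = 0.0746). Kcnk2 (TREK-1), a stretch- and lipid-gated channel, read 1089 on the array labelled Norm 1b, 1260 and 1179 at 10 h, 604.2 and 608.5 at 2 d, 1123 and 970.9 at 4 d, and 958.2 and 917.8 at 6 d. Its 2 d samples were also below all others, by -0.84 ± 0.23 from Norm (adjusted p = 0.0934).

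Kcnk3 (TASK-1), an acid-sensitive leak channel known from lung artery muscle, read 1358 and 1176 in Norm on B, 979.6 and 1009 at 10 h, 1376 and 1368 at 2 d, 1609 and 1023 at 4 d, and 1204 and 1308 at 6 d. Both 10 h samples lay below both Norm samples, a difference of -0.35 ± 0.22 that did not pass (adjusted p = 0.91), and from 2 d on it was between -0.01 and 0.12 (each ± 0.22). At 10 h, 40.8% of all probe sets had their 10 h samples on 1 side of Norm. The A probe set of Kcnk3 was under the floor throughout. Kcnk7 and Kcnk15, both of which have given little or no current in expression systems, read higher at 2 d, with Kcnk7 at 819.7 and 991.9 against 459.2 on the array labelled Norm 1b (0.97 ± 0.34, adjusted p = 0.176) and Kcnk15 at 550.9 and 421.2 against 362.1 and 300 in Norm (0.55 ± 0.22, adjusted p = 0.215). Kcnk1, Kcnk4 and Kcnk5 differed from Norm by at most 0.27 on the log2 scale at any time, with standard errors of 0.27 to 0.43.

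Kcnk10 (TREK-2), a relative of Kcnk2, read 263.7 and 868.1 in Norm on C, 1053 and 1662 at 10 h, 2045 and 1123 at 2 d, 793.5 and 1083 at 4 d, and 503.7 and 551.5 at 6 d. The 10 h and 2 d samples were above all Norm samples, by 1.47 ± 0.55 (adjusted p = 0.716) and 1.66 ± 0.55 (adjusted p = 0.142). These values rest on which Norm sample is used: at 2 d the difference was 0.80 without Norm 1a and 2.52 without Norm 1b, the only fit in which it passed (adjusted p = 0.0491), and at 10 h it was 0.61 and 2.33. Kcnk12, a channel largely held inside the cell, had 2 probe sets on C that differed widely between samples of a group, such as 1145 and 196.1 at 2 d for one and 81.4 and 941.6 in Norm for the other.

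Auxiliary subunits change the gating and traffic of the pores. Kcne2, a partner of Kcnq1 and Kcnh2 in epithelia and heart (chr16:92292389-92298133), read 1286 and 1316 in Norm on C, 1633 and 1654 at 10 h, 1445 and 1443 at 2 d, 1824 and 1668 at 4 d, and 2853 and 2245 at 6 d. Every low-oxygen sample lay above both Norm samples, and the 6 d samples were the highest. The difference was 0.34, 0.15, 0.42 and 0.96 (each ± 0.18) at the 4 times, and at 6 d it did not pass (adjusted p = 0.216). Within the run of 2 d and 6 d it was 0.81 ± 0.18 higher at 6 d (adjusted p = 0.123). Kcne4, an inhibitor of Kv channels in smooth muscle, read 669 and 562.5 in Norm on B and 259.5 and 432.3 at 4 d (-0.77 ± 0.25, adjusted p = 0.672), and all low-oxygen samples but 1 (2 d 1a, 562.6) lay below both Norm samples. Kcne3 and Kcnab2 were near the floor.

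A list of channel genes known from lung vessels, drawn up with earlier results of these data known, had 19 detected probe sets for 16 genes. 1 of these, Kcnc1, passed at 2 d and none at the other times. The median log2 difference of the list was 0.02 at 10 h, 0.08 at 2 d, 0.02 at 4 d and 0.00 at 6 d, beside 0 for all probe sets.

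Other genes that move potassium, such as the sodium pump, its FXYD regulators and the potassium-chloride transporters, had 23 detected probe sets for 19 genes, and none passed in any comparison. The smallest p at 2 d belonged to Fxyd7, a pump regulator of brain, whose Norm samples lay at the floor and which was higher by at least 1.06 ± 0.27 (adjusted p = 0.0766). Genes of calcium entry and stores had 34 detected probe sets for 23 genes, again with none past the threshold in any comparison. Here the smallest p at 2 d belonged to Trpm7, a cation channel with a kinase domain (at least 0.94 ± 0.24, adjusted p = 0.0769), followed by Atp2a2, the calcium pump of heart and smooth muscle stores (-1.18 ± 0.30, adjusted p = 0.0818). The Trpm7 probe set lay at the floor in every group but 2 d. It was therefore tested only through its 2 d arrays and could not have read lower there.

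Several channels above are also expressed outside the lung tissue proper, and markers of such cells differed between the groups. Of all 25801 probe sets tested, 12214 were lower at 2 d and 480 (1.86%) passed, 280 of them lower. On A, 77 of 8392 passed. Of 13 heart muscle probe sets 10 were lower and 3 higher at 2 d (median -0.94), and 4 fell past the threshold (Myl7, Myl4, Csrp3 and Tnni3). All 4 are on A, where Norm is the single array labelled Norm 1b. The summed heart muscle intensity on A was 18450 on the array labelled Norm 1b, 10890 to 11530 at 10 h, 9564 to 9635 at 2 d, 13310 to 14150 at 4 d and 10440 to 11190 at 6 d. All 8 heart muscle probe sets on A were above the floor on the array labelled Norm 1b. On B, with both Norm samples, the sums overlapped between Norm (2148 to 2932) and 2 d (1955 to 2773), and were 2124 to 2412 at 10 h, 3140 to 3207 at 4 d and 2215 to 2398 at 6 d. 2 of 12 skeletal muscle probe sets (Acta1 and Myh1), both on A, also fell at 2 d. The airway epithelium list went both ways: 6 of 10 probe sets were lower, 5 of them past the threshold (2 for Spag6l and 1 each for Cyp2f2, Ak7 and Sec14l3), and 3 were higher without passing. Its summed intensity was higher at 2 d than in Norm on A (42630 to 50130 against 28030) and B (23120 to 28250 against 16570 to 17360), and lower on C (2176 to 2194 against 5031 to 5267). Red cell markers read higher in all 6 probe sets at 2 d (median 0.77) and at 6 d (median 0.42), where 49.7 and 47.7% of all probe sets were higher. None of the 6 passed at either time (smallest adjusted p 0.0944 and 0.717). Their sum on A was 16850 on the array labelled Norm 1b, 9565 to 17250 at 10 h, 36370 to 47570 at 2 d, 16820 to 22010 at 4 d and 19780 to 36240 at 6 d. At 2 d none of 14 alveolar, 9 endothelial, 12 smooth muscle, 5 lymphocyte or 7 macrophage probe sets was called. At 6 d all 12 smooth muscle probe sets were lower (median -0.36) and 13 of the 14 alveolar ones higher (median 0.52), where 47.7% of all were higher, and none passed. For late against early, 1 of the 14 alveolar probe sets passed, for Sftpa1 (1.12 ± 0.11, adjusted p = 0.024), against 0.0155% of all. The part of these markers in the channel values was not tested.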

How the data were processed

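Whole-lung RNA of 5 groups of 2 samples was measured on 3 array types. The deposited values are probe set intensities on a linear scale; the software that summarised the probes is not given in the sources used here. Trimmed means, with 2% left out at each end, were 800.2 to 800.4 on the arrays used, so no further scaling was applied. Intensities under the 40th percentile of an array type were set to that floor before log2. Probe sets above it on 2 or more arrays were tested: 8392 on A, 8600 on B and 8809 on C. The fit by limma 3.58.1 in R 4.3.3 used 5 group means per array type and eBayes with a variance trend, with Benjamini-Hochberg adjustment over the 3 types together, two-sided. All groups entered each fit. Symbols came from the platform annotation; RefSeq gave coordinates. The code was tested on simulated data.

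Named are the Kcn probe sets past 0.05, the 5 highest and 5 lowest differences per comparison, the 2 brightest of each class relative to the array type, and the detected lung vessel channels. Kcne3, Kcnab2, Kcnip1, Kcnip2, Kcnk1, Kcnk4, Kcnk5, Kcnk7, Kcnk15, Kcnt1, Kcnh2 and the genes not detected fall outside this rule and were named after their values were seen. The members and lists were chosen with earlier results of these data known.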

Additional observations from a re-analysis of the deposited data

How the results depend on the processing

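Of the Kcn probe sets called at 2 d (2), median scaling left 1, and no filter on dim probe sets, no variance trend, a fit to the compared groups alone and the replicate block left 0; leaving out 1 sample gave 0 to 4. The adjusted p of Kcnc1 was 0.0563 without the filter, 0.0772 without the trend, 0.188 in the fit to the compared groups and 0.0615 with the replicate block, and that of Kcnip3 was 0.0758, 0.06, 0.204 and 0.062, with 0.0622 under median scaling. Deviations of samples sharing a letter correlated at -0.158 to 0.134 between groups, so no strong pairing by letter was seen. With 2 samples in a group, this check cannot settle whether a weaker pairing exists. The test over all times (1) gave 2 with a floor at the 20th percentile or a filter of 5 or more arrays, which added Kcnh1, and 0 to 2 with 1 sample left out. For 10 h, 4 d, 6 d and late against early, no alternative gave a Kcn call. Adjusting within each array type gave 3 at 2 d, adding Kcnk6. The B and C arrays alone, and a fit without the A arrays labelled Norm 1b and 4 d 1a, both chosen after seeing the data, gave 2. 3 differences changed sign when 1 sample was left out: Kcna6 at 10 h (-1.16 to 0.06084, the latter without Norm 1b), a Kcnk12 probe set at 2 d (-0.04284 without 2 d 1a, to 2.468) and the C probe set of Kcnma1 at 10 h (-1.976 to 0.232, the latter without Norm 1a). Of the recomputed values of the 52 named differences, 1036 kept direction and side of the threshold, 24 lost the call and 5 gained one. Over all probe sets, the alternatives gave 0 to 733 calls at 2 d (480) and 0 to 672 over all times (319). The causes were not tested. For a probe set at the floor the signal gives only an upper limit.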
